A study of Homo sapiens with 5 samples.

Results

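The 38 HOX genes described here lie in the HOXA, HOXB, HOXC and HOXD clusters, and they were studied through the DNA methylation of the sequence in and around them. A window of 1000 bases belonged to a HOX gene when the deposited table assigned it to that gene or when it overlapped the gene or the 1500 bases on either side. This gave 235 of 288391 windows, 0.0815% of the table, of which 60 belonged to 10 HOXA genes, 64 to 10 HOXB genes, 57 to 9 HOXC genes and 54 to 9 HOXD genes. By overlap 227 windows were found, the other 8 came from the table's assignment alone, and 100 windows belonged to more than 1 gene because long transcripts such as those of HOXA3, HOXB3, HOXB7, HOXC4, HOXC6 and HOXD3 run across their neighbours.

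The cells were human iPSCs of the 201B7 line, given as wild type in the sample labels and treated for 48 h. They received etoposide (a topoisomerase II inhibitor, 1 nM), propyl gallate (an antioxidant additive, 1 µM), theophylline (a bronchodilator, 1 µM) or 5-aza-dc (a cytidine analogue that traps DNA methyltransferases, 10 nM), and the vehicle control that all 4 comparisons share received 0.1% DMSO. RRBS, which cuts DNA at CCGG sites and so samples CpG-rich sequence, was made on a single library of each, so nothing here can be set against a spread between replicates. All cells were of 1 line. The paper that reported these data describes its genome-wide methylation profiling in iPSCs engineered with a fluorescent methyl-CpG-binding domain (mCherry-MBD-nls). Its RRBS methods say only cells, so the wild-type label may leave out this construct.

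HOX genes encode homeodomain transcription factors that give cells their position along the body axis, and their order on the chromosome follows the order in which they are used from head to tail. Anterior genes (paralog groups 1 to 3) pattern the hindbrain and the pharyngeal arches, central genes (groups 4 to 8) the neck and trunk, and posterior genes (groups 9 to 13) the lumbar to caudal axis, the limbs and the genital tract. In pluripotent cells the clusters are known to be silent under Polycomb proteins, which act through histone marks, while their CpG islands carry little DNA methylation.

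The methylation level is given as the β-value, the share of cytosine calls in a window that were methylated, in percent. The libraries held 188844850 to 228919184 calls in the windows of the table, and 202 of the 235 HOX windows had at least 100 calls in every library while 8 had fewer than 30 in at least 1. Intervals are 95% intervals for counting error only, and because 1 read or its PCR copies can give many calls they are narrower than the true error. The cell type could be checked only loosely. Of 7 pluripotency genes with a window at their annotated 5′ end, 4 (LIN28A, DPPA4, DNMT3B and SALL4) were under 10% there. POU5F1 and LIN28B were over 50% at the 5′ end the table gives for them, and ZFP42 had a 5-library mean of 51.7% (37.2% to 60.9%). The fibroblast genes COL1A1, COL1A2 and TWIST1 were also under 10%. These windows therefore do not separate the labelled cell type from fibroblasts.

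Promoter sequences are shown first for the genes with the least and the most methylated 5′ end windows, HOXD13 and HOXA7. Those of HOXA6 and HOXB1 follow, chosen after values were seen because a window overlapping each was lower after 5-aza-dc. Each runs from 250 bases before to 50 bases after the RefSeq start (GRCh38.p14) on the gene's own strand, with every CpG in capitals.
HOXD13, chr2:176092471-176092770, plus strand: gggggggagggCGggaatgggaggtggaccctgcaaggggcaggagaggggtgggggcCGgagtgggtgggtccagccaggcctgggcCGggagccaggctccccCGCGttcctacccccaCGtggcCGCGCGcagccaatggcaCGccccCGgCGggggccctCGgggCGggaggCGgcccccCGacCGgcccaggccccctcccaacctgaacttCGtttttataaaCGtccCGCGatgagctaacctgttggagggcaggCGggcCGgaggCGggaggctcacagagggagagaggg
HOXA7, chr7:27156626-27156925, minus strand: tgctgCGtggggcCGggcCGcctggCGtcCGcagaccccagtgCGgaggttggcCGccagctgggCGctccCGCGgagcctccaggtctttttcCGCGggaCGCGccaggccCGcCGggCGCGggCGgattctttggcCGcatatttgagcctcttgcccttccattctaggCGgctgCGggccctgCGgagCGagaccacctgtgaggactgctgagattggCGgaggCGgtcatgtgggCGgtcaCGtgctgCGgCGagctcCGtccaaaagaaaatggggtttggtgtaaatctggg
HOXA6, chr7:27147725-27148024, minus strand: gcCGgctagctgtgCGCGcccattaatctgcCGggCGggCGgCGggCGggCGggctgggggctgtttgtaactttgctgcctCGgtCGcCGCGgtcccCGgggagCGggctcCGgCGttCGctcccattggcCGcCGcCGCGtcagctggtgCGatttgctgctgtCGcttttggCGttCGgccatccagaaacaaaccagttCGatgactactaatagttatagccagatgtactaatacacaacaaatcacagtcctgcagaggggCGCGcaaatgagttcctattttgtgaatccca
HOXB1, chr17:48530962-48531261, minus strand: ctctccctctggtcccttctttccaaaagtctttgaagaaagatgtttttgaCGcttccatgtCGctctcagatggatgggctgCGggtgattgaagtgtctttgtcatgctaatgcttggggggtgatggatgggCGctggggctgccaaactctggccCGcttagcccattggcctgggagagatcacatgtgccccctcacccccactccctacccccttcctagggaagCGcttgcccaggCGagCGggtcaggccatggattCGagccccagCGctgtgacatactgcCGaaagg

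HOXD13 (ENSG00000128714), the most posterior HOXD gene and a gene of digit formation, had 24 CpGs and 5 CCGG sites in these 300 bases. The window that holds them (chr2:176092001-176093000, CpG island) was at 1.46% in the vehicle control, and etoposide left it at 1.38%, propyl gallate at 1.13%, theophylline at 1.52% and 5-aza-dc at 0.544%, on at least 1534 calls. The HOXA7 (ENSG00000122592) promoter had 31 CpGs and 2 CCGG sites and lay in a window at 5.60% to 7.38% (chr7:27156001-27157000), whereas the 5′ end that the table gives for HOXA7 lies in the next window, which was the most methylated of all HOX 5′ ends. HOXA6 (ENSG00000106006) had 29 CpGs and HOXB1 (ENSG00000120094) 11, with no CCGG site in the HOXB1 promoter. In RefSeq 20 of the 38 genes had a promoter entry, 27 promoters in all. The letters CG occurred a median of 22 times in them against 14 in all 35116 promoters of the same length, and CCGG, read the same on both strands and holding a CG itself, occurred in 85.2% of them against 63.1% of all promoters.

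The HOX clusters were little methylated in all 5 libraries. Over the 235 windows the mean β-value was 13.5% in the vehicle control (13.2 to 13.7), 13.2% with etoposide, 13.3% with both propyl gallate and theophylline, and 11.3% with 5-aza-dc. The same mean over all 288391 windows was 79.4%, 79.9%, 79.9%, 80.4% and 78.4%. By the mean over the 5 libraries, 155 HOX windows (66.0%) were under 10%, 69 were between 10% and 50%, and 11 (4.68%) were at 50% or more, whereas of all windows 9.61% were under 10% and 86.9% at 50% or more.

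HOX windows were more often CpG islands than windows elsewhere, and they were lower within every class as well. Of the HOX windows 162 (68.9%) were CpG islands, against 17.3% of all windows. HOX island windows were at 8.04% in the vehicle control, where all island windows were at 41.5%. By the mean over the 5 libraries none of the 162 reached 50%, while 42.8% of all island windows did. Outside islands the HOX windows were also lower than their class: 20.6% in 49 shores against 82.1%, 32.6% in 16 shelves against 86.9%, and 41.5% in 8 windows far from islands against 88.1%. In the opposite direction, the 127 HOX island windows under 10% were not as low as the usual unmethylated island, with 4.82% (4.64 to 5.00) in the vehicle control against 2.13% over 23782 such windows.

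**Figure D1:**
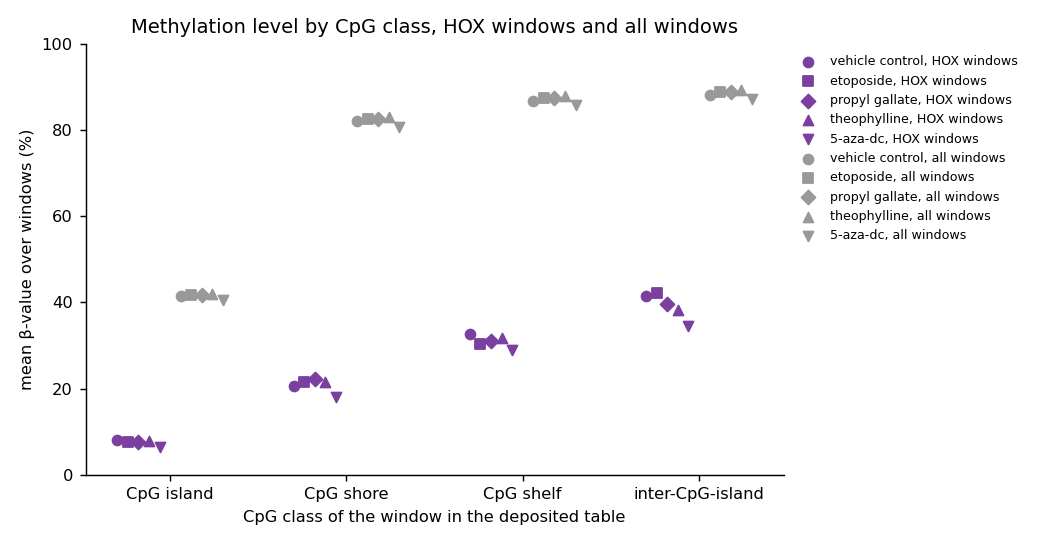
Mean β-value in percent (vertical axis) of HOX windows (purple) and all windows of the table (grey) in 4 classes of distance from a CpG island, with 1 point per library and its shape naming the library. HOX windows lie below all windows in every class, and 5-aza-dc is the lowest HOX point in each, as in the islands (6.35% against 7.51% to 8.04%).

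The 4 clusters differed little in their mean and more in how it was made up. In the vehicle control HOXA was at 12.5% (12 to 13), HOXB at 14.5% (13.9 to 15.1), HOXC at 14.6% (14.0 to 15.2) and HOXD at 12.2% (11.8 to 12.5). Medians over the windows of the 5-library means were 8.69%, 7.43%, 8.06% and 4.59% in that order, so HOXD had the lowest typical window. Under 10% were 58.3% of HOXA, 68.8% of HOXB, 63.2% of HOXC and 74.1% of HOXD windows, and at 50% or more were 1, 5, 2 and 3 windows. Islands made up 48 of the 60 HOXA windows and 85.2% of those of HOXD, but 57.8% of HOXB and 54.4% of HOXC, and within islands the order in the vehicle control was HOXA (9.84%, 9.37 to 10.3), HOXC (7.93%), HOXD (7.67%) and HOXB (6.27%, 5.85 to 6.69). The counting intervals of HOXA and HOXB islands did not overlap those of any other cluster, and those of HOXC and HOXD islands overlapped each other.

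**Figure D2:**
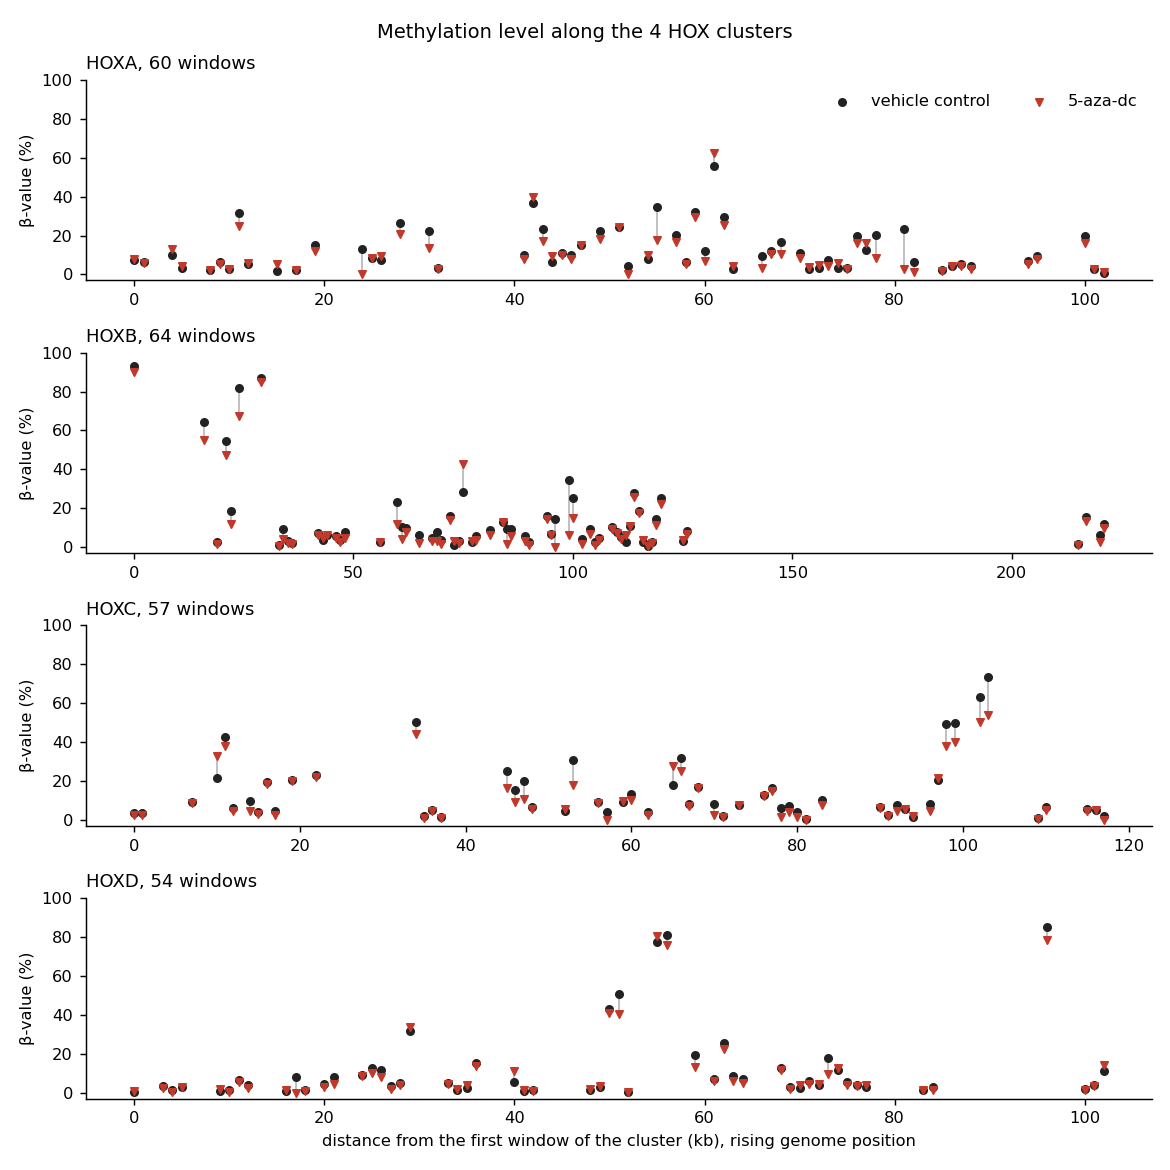
β-value in percent of each HOX window in the vehicle control (black circles) and after 5-aza-dc (red triangles) along the 4 clusters, by distance in kb from the first window of the cluster in rising genome position; grey lines join the 2 values of a window. Most windows lie under 10%, and the windows with a 5-library mean of 50% or more are 5 of HOXB1 and HOXB2, 2 within HOXC4, 2 within HOXD3, 1 of HOXD1 and 1 of HOXA7.

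The methylated windows were few and lay in different places in each cluster. In HOXB the 5 windows at 50% or more belonged to HOXB1 and HOXB2 at 1 end of the cluster. The highest window with at least 100 calls in every library (chr17:48508001-48509000, intergenic and assigned to HOXB1 by the table alone) was at 93.3%, 92.0%, 89.5%, 93.0% and 90.1% in the order vehicle control, etoposide, propyl gallate, theophylline and 5-aza-dc, the order used for all lists of 5 values here. In HOXC the highest was a window within HOXC4 and far from islands (chr12:54040001-54041000) at 63.1%, 63.4%, 59.1%, 58.7% and 50.2%, where 5-aza-dc stood apart. In HOXD it was an island window within HOXD3, downstream of its annotated start (chr2:176139001-176140000) at 51.0%, 45.5%, 50.8%, 45.9% and 40.4%. In HOXA, which had no window that high on as many calls, it was a shore window shared by HOXA3 and HOXA5 (chr7:27140001-27141000) at 36.6%, 43.1%, 38.5%, 40.1% and 39.9%.

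The lowest such windows were near or under 1% and did not order the libraries in the same way. They were the HOXA13 promoter (chr7:27200001-27201000) at 0.843%, 2.19%, 0.883%, 1.56% and 1.07%, and a HOXB7 and HOXB9 window (chr17:48625001-48626000) at 0.866%, 0.973%, 0.769%, 1.15% and 0.810%. In HOXC the lowest was a window of HOXC4 and HOXC6 (chr12:54019001-54020000) at 0.411%, 1.38%, 3.07%, 2.36% and 0.255%. In HOXD it was a window upstream of HOXD13 (chr2:176088001-176089000) at 0.459%, 0%, 1.03%, 1.09% and 0.870%, where the 0% after etoposide rests on 239 calls, where a count of 0 allows up to 1.26%.

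Among the genes, the 5-library mean ran from 2.02% for HOXD13 to 53.0% for HOXB1, with a median of 10.0%. HOXB1, which specifies the hindbrain segment of the facial nerve, was the only gene with a 5-library mean over 30% and had a single island window among its 6. Only 4 of these windows overlapped the gene or its 1500 bases. The others were assigned by the table alone, and the window at a 5-library mean of 91.6% is among them. The mean of HOXB1 was 52.6%, 54.7%, 55.4%, 56.7% and 45.6%. After it came HOXD1 (25.7%, 27.6%, 28.3%, 30.4% and 24.4%), HOXA7 (24.2%, 23.7%, 24.6%, 23.6% and 21.3%) and HOXB2 (20.6%, 21.1%, 19.0%, 21.6% and 18.7%). Each of these 3 held at least 1 window over 50%, so their means describe few windows. In HOXD1 and HOXB2 it was 1 window, at a 5-library mean of 86.1% and 88.6%. Both windows lie outside the gene and its 1500 bases and were assigned by the table alone, so the place of these genes rests on that assignment. At the other end stood HOXD13 (2.0%, 1.43%, 2.46%, 2.36% and 1.84%), HOXD8 (2.77%, 3.34%, 3.63%, 3.89% and 4.45%) and HOXD12 (4.01%, 3.77%, 3.56%, 4.24% and 2.91%), whose windows were all islands.

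Within HOXA the remaining genes lay between 2.97% and 17.2% in every library. HOXA2, which gives the second pharyngeal arch its identity, was between 6.85% and 8.57% and HOXA3, a gene of thymus and parathyroid formation, between 11.3% and 13.7%. The trunk genes HOXA4 (9.14% to 13.7%), HOXA5 (15.4% to 17.2%) and HOXA6 (12.2% to 14.8%) came next along the cluster. HOXA9, a gene of blood stem cells, was between 8.95% and 12.6%, HOXA10, needed for the uterus, between 6.68% and 11.9%, HOXA11, a gene of the forearm, between 2.97% and 7.71%, and HOXA13, of the hand, foot and genital tract, between 6.07% and 7.97%.

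Within HOXB, apart from HOXB1 and HOXB2, the genes lay between 4.0% and 15.1%. HOXB4, known for the growth of blood stem cells, was at 9.48% in the vehicle control and 4.96% to 6.58% in the other libraries, so the control stood above all of them. Only 3 of the 7 HOXB4 windows were found by overlap, and the others were assigned by the table alone. HOXB5 ran from 6.62% to 15.1%, the widest of these, with the top value after propyl gallate. The ranges of HOXB3 (6.48% to 8.55%), HOXB6 (5.17% to 10.1%), HOXB7 (8.38% to 11.2%), HOXB9 (8.54% to 10.8%) and HOXB13, the prostate gene far from the others (6.80% to 8.92%), fell within 5.17% and 11.2%, and HOXB8 lay lower (4.0% to 6.28%).

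Within HOXC the 9 genes lay between 7.97% and 18.9%. HOXC10, a gene of the lumbar spinal cord, was at 17.1%, 14.4%, 16.3%, 15.8% and 11% and was lowest after 5-aza-dc. HOXC4 (12.5% to 16.1%), HOXC5 (14.4% to 18.9%), HOXC12 (12.1% to 16.1%) and HOXC13, a gene of hair and nail (14.5% to 16.2%), were the higher ones, and HOXC6 (7.97% to 9.67%), HOXC8 (8.05% to 9.93%), HOXC9 (11.3% to 13.7%) and HOXC11 (12.1% to 14.8%) the lower. Within HOXD, HOXD3 (15.0% to 16.8%) and HOXD10 (8.70% to 11.8%) lay above HOXD4 (8.26% to 9.95%), HOXD9 (5.85% to 6.69%) and HOXD11 (4.54% to 7.68%), a limb gene.

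Of the 38 genes 34 had a window at the annotated 5′ end, in 33 different windows, and 23 of these genes were under 10% there in all 5 libraries. No such window was present for HOXB1, HOXB2, HOXB8 and HOXC5. All 9 HOXD genes were under 10% throughout, from HOXD13 at a 5-library mean of 1.21% to HOXD4 at 6.91%. In HOXC the values ran from HOXC11 (1.51%) to HOXC12 (19.2%), in HOXB from HOXB9 (2.80%) to HOXB6 (7.73%, on 23 calls in the shallowest library) and in HOXA from HOXA13 (1.31%) to HOXA7 (35.7%, 28 calls in the shallowest). The HOXA7 window was at 32.1%, 40.6%, 39.6%, 36.7% and 29.4%, and no chemical was called there. The annotated 5′ end is the outer limit of the gene in the table and can lie away from the RefSeq start. For HOXC6 it lay in a 3′ UTR window assigned to HOXC10, and for HOXB3 in the promoter window of HOXB6. The HOXA6 window was at a 5-library mean of 1.40%, while its RefSeq promoter window was at 21.5%. These windows are therefore not always a gene's own promoter.

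After 5-aza-dc the HOX windows were lower in each of the 4 clusters. After the other 3 chemicals the cluster means differed from the control by -0.639 to 0.530 points, and of these 12 intervals only that of HOXD after propyl gallate (0.530 points, 0.00126 to 1.06) did not hold 0. The mean difference over the 235 windows was -2.19 percentage points (-2.58 to -1.79) after 5-aza-dc, with 186 windows lower and 49 higher. It was -0.291 points (-0.662 to 0.0806) after etoposide, -0.131 (-0.501 to 0.238) after propyl gallate and -0.177 (-0.563 to 0.209) after theophylline, where the median was on the other side of 0 (0.286). By cluster 5-aza-dc gave -2.11 points in HOXA (-2.82 to -1.40), -2.75 in HOXB (-3.56 to -1.94), -2.54 in HOXC (-3.55 to -1.53) and -1.23 in HOXD (-1.79 to -0.668), and windows were lower in 41 of 60, 56 of 64, 51 of 57 and 38 of 54. The HOXD interval did not overlap that of HOXB and overlapped those of HOXA and HOXC. Because the control is shared, the libraries of the 4 chemicals were also compared with each other: over the HOX windows 5-aza-dc minus each of the other 3 chemicals was -2.05 to -1.90 points, and the 3 pairs among those chemicals differed by at most 0.159 points. In HOXD these pairs differed by up to 0.724 points, and 5-aza-dc minus the others was -1.76 to -1.03 points.

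**Figure D3:**
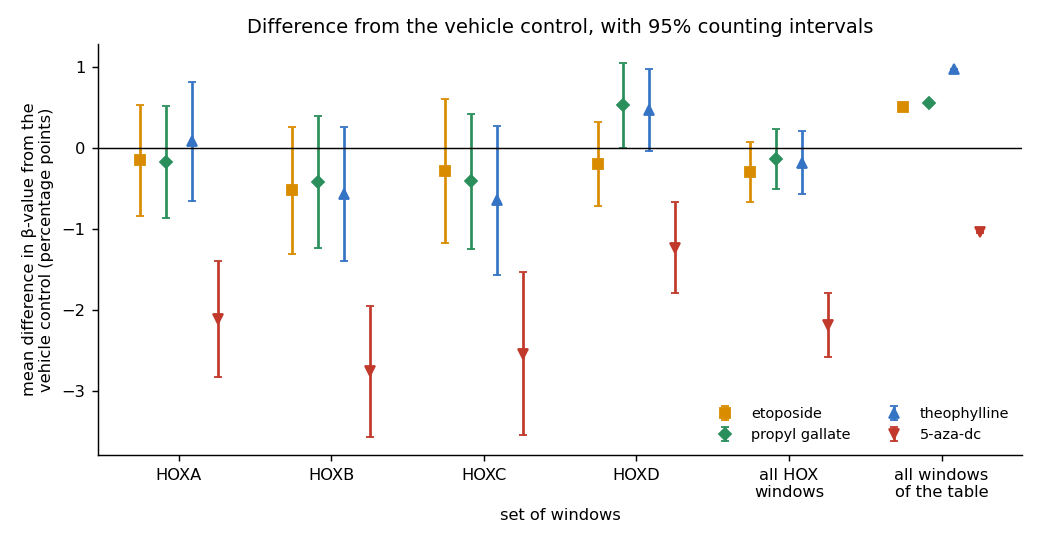
Mean difference in β-value from the vehicle control in percentage points (vertical axis), for the windows of each HOX cluster, all HOX windows and all windows of the table, with 95% counting intervals. The 5-aza-dc points lie at -2.75 to -1.23 in the clusters and at -1.03 over all windows, and the other 3 chemicals lie above 0 over all windows (0.513 to 0.975) but not over all HOX windows.

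The table as a whole moved by -1.03 points after 5-aza-dc and by 0.513, 0.566 and 0.975 points after etoposide, propyl gallate and theophylline. A closer setting is windows of the same level class. In windows with a 5-library mean under 10%, HOX windows went from 5.10% to 3.92%, -1.18 points (-1.42 to -0.948), against -0.357 over 27717 such windows. The class does not match levels exactly: its HOX island windows started above all island windows under 10%, as given above. How far the starting level accounts for the gap was not tested. In windows between 10% and 50% the difference was -3.76 points (-4.86 to -2.65) in HOX and -2.87 over all, so there the HOX interval held the value of all windows. Within islands HOX windows differed by -1.69 points and all island windows by -0.969. In HOXC all 31 island windows were lower after 5-aza-dc than in the control, and in HOXA, HOXB and HOXD 33 of 48, 31 of 37 and 34 of 46 were.

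By paralog group, with the windows that the table assigns to each gene, 5-aza-dc was lower throughout. Anterior genes (17 windows) went from 31.4% in the control to 28.4%, central genes (63 windows) from 10.4% to 7.49%, and posterior genes (66 windows) from 10.5% to 9.21%. Of the 17 anterior windows 6 were of HOXB1, and only 1, 2 and 2 of HOXA3, HOXB3 and HOXD3. Those 3 genes have 26, 29 and 24 windows when overlap is counted too. The anterior values therefore weigh HOXB1 heavily and the long genes little. The other chemicals went different ways: anterior genes were at 32.7% after etoposide, 32.8% after propyl gallate and 34.9% after theophylline, all above the control (1.21, 1.33 and 3.45 points), and central genes at 8.96%, 9.11% and 8.63%, all below it (-1.43, -1.27 and -1.75 points). These intervals did not reach 0, but as the 3 comparisons share 1 control library they are not separate observations. Posterior genes moved by 0.262, 0.589 and -0.0818 points.

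Gene by gene, 34 of 38 were lower after 5-aza-dc than in the control, 24 of them with an interval below 0. As 100 of the 235 windows belonged to more than 1 gene and all genes share the same libraries, the genes are not separate observations. The largest falls were -6.99 points in HOXB1 (-9.43 to -4.55), -6.15 in HOXC10 (-8.69 to -3.61), -4.73 in HOXA11 (-7.33 to -2.14) and -4.52 in both HOXA4 and HOXB4. No window of HOXA11 was called, and 1 of its 6 (chr7:27179001-27180000, as few as 43 calls) went from 23.3% to 2.94%; without it the other 5 differed by -1.62 points (-3.10 to -0.130). HOXA4 differed by -2.80 points (-4.97 to -0.617) without its most changed window, which had as few as 30 calls. In HOXB1, HOXC10 and HOXB4 the difference without the most changed window was -5.50, -4.83 and -3.41 points. The most changed windows of HOXA4 and HOXB4 were assigned to these genes by the table alone and lie within HOXA3 and HOXB3. By overlap HOXA4 had only 2 of its 6 windows and HOXB4 only 3 of 7, so both falls rest partly on that assignment. The window named for HOXA11 lies within HOXA10. HOXD8 was the one gene with an interval above 0, at 1.68 points (1.03 to 2.32), and HOXA2, HOXC13 and HOXD9 were higher by 0.928, 0.575 and 0.0425 points with intervals that held 0. Etoposide left 22 genes lower and 16 higher, propyl gallate 18 and 20, theophylline 21 and 17. By windows, 97 of 235 (41.3%) had their lowest value after 5-aza-dc against 35.1% of all windows, and 14 had their highest there against 51 to 60 for each of the other 4 libraries.

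Fisher's exact test, two-sided, was run on the calls of every window of the table with Benjamini-Hochberg adjustment over all of them, and an adjusted p under 0.01 was called. It compares 2 libraries and not 2 conditions. After 5-aza-dc 33 HOX windows (14.0%) were called lower and 2 higher, beside 10.4% and 3.55% of all windows. Etoposide had 9 called lower and 7 higher (3.74% and 6.37% of all windows), propyl gallate 11 and 6 (3.71% and 6.55%), and theophylline 10 and 5 (2.86% and 8.13%). The 5-aza-dc share was 18.8% in HOXB, 14.0% in HOXC, 11.7% in HOXA and 11.1% in HOXD. It was 14.2% against 7.08% in windows under 10%, 26 of 162 (16%) against 13.5% in islands and, in the other direction, 9 of 69 (13%) against 23.3% between 10% and 50%. Within the class under 10% the starting level was not matched, and depth was matched in none of these comparisons. With a difference of at least 10 percentage points also required, 6 HOX windows (2.55%) were lower after 5-aza-dc beside 2.76% of all windows, so the HOX share was then no higher than that of the table. When all calls were divided by 10, to allow for calls that share a read or a PCR copy, none of the HOX windows was called for any chemical, nor were more than 0.00139% of all windows, so the calls rest on counting each cytosine as independent.

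Of the 33 windows called lower after 5-aza-dc, 26 were islands, the falls ran from -28.3 to -1.19 points with a median of -4.40, and 26 were below all 4 other libraries. In 18 of them the control was above all 4 chemicals. A call favours windows with a high control and a low 5-aza-dc value, so both counts are partly set by the choice of windows. The largest fall with at least 30 calls in every library was in a shore window at the 3′ end of HOXA7, within HOXA3 (chr7:27153001-27154000), at 34.9% (31.4 to 38.5), 25.4%, 26.4%, 21.5% and 17.5% (14.9 to 20.6) with an adjusted p of 7.47e-11 by Fisher's exact test after 5-aza-dc. All 4 chemicals were below the control there, called for etoposide and theophylline as well. Next was an island window of HOXA3 and HOXA4 (chr7:27122001-27123000) at 13.2%, 4.26%, 2.35%, 5.71% and 0%, on 30 to 88 calls, where a count of 0 allows up to 3.41%. The HOXC4 window far from islands, at 50.2% after 5-aza-dc against 58.7% to 63.4% in the other libraries, was the third (adjusted p = 0.00405 by Fisher's exact test). A HOXB7 window (chr17:48607001-48608000) had the widest gap, 34.8% to 6.49%, but as few as 23 calls in 1 library.

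**Figure D4:**
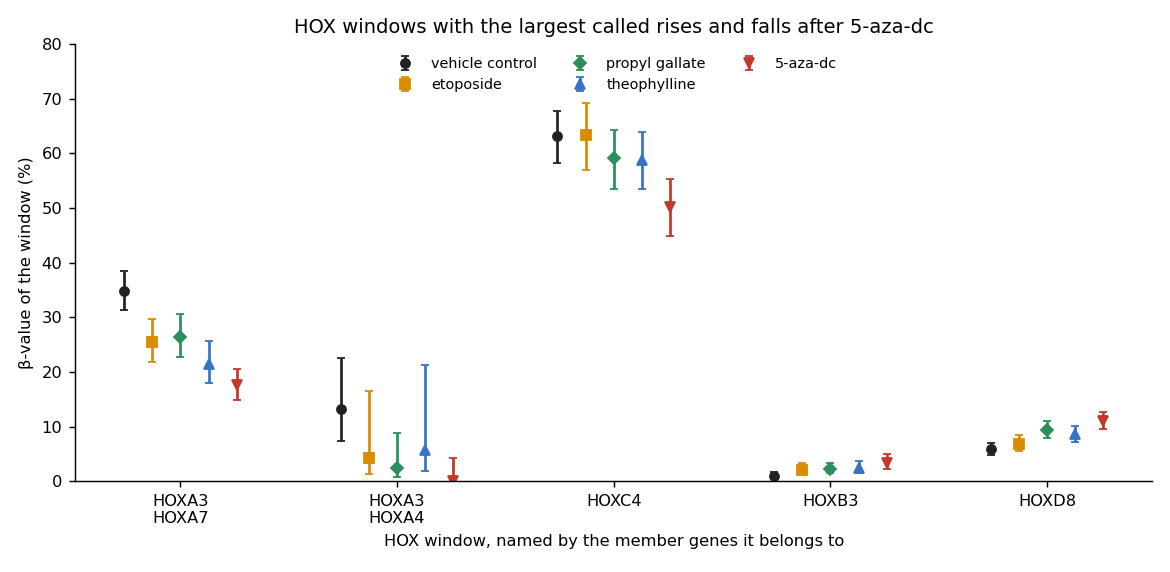
β-value in percent (vertical axis) of the 3 largest called falls and the only 2 called rises among HOX windows after 5-aza-dc, in each of 5 libraries, with 95% Wilson intervals for counting error. In the HOXA3 and HOXA7 window the control stands above all 4 chemicals (34.9% against 17.5% to 26.4%), and in the HOXC4 window 5-aza-dc stands below the rest.

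At the 5′ ends, where most windows were islands, 7 of 33 windows were called lower after 5-aza-dc and none higher. That is 21.2%, beside 10.4% of all windows and 13.5% of all island windows. Depth was not matched, and deep windows are called on smaller differences. The 5′ end windows had 28 to 6507 calls in the control, where the median over all windows was 499. How far depth accounts for the share was not tested. Called lower and higher were 3 and 1 after etoposide, 2 and 1 after propyl gallate and 3 and 0 after theophylline. Those lower after 5-aza-dc were in HOXA6 (4.31% to 0%, where a count of 0 allows up to 1.18%), HOXB4 (3.92% to 1.69%), HOXB13 (6.16% to 2.64%), HOXC4 (6.01% to 1.42%), HOXC8 (8.43% to 2.69%), HOXC10 (20.2% to 10.7%) and HOXD10 (4.66% to 2.86%). In 4 of the 7 another chemical, set against the same control library, was called lower too: HOXA6 was also at 0% after propyl gallate and theophylline, HOXB13 at 3.01% after etoposide and 2.54% after theophylline, HOXC4 at 2.03% after etoposide and 0.755% after propyl gallate, and HOXC8 at 2.01% after etoposide and 1.69% after theophylline. In HOXB4, HOXC10 and HOXD10 the call was made for 5-aza-dc alone. The HOXC10 window was at 20.2%, 19.1%, 16.9%, 18.6% and 10.7% (adjusted p = 1.68e-08 by Fisher's exact test), and no other chemical was called there. Of the windows that overlap promoters printed above, that of HOXA6 (chr7:27147001-27148000) was at 22.5%, 21.9%, 22.0%, 23.1% and 18.1%. That of HOXB1 (chr17:48530001-48531000, annotated as 5′ UTR) was at 18.5%, 18.1%, 16.7%, 22.1% and 12.1%. It holds only the last bases of the printed HOXB1 promoter, after the RefSeq start, and no window covered the rest. Both windows were called lower after 5-aza-dc (adjusted p = 0.000693 and 3.06e-07 by Fisher's exact test) and in neither was another chemical called.

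The 2 windows called higher after 5-aza-dc were a HOXD8 promoter window (chr2:176128001-176129000) at 5.84%, 6.90%, 9.31%, 8.59% and 11% and a HOXB3 exon window (chr17:48581001-48582000) at 0.938%, 2.15%, 2.25%, 2.42% and 3.33%. In both the control was the lowest and 5-aza-dc the highest library. After etoposide, with 7 called rises, and propyl gallate, with 6, the largest called rise was the same shore window of HOXD10 (chr2:176117001-176118000) at 31.9%, 42.0%, 44.7%, 37.6% and 34.0%. The called rises after etoposide also included windows of HOXC6 and HOXC9 (chr12:54003001-54004000) at 18.3%, 28.1%, 19.1%, 12.7% and 27.7%, and of HOXA3 and HOXA5 (chr7:27142001-27143000) at 6.17%, 12.5%, 10.8%, 7.43% and 9.73%. The remaining 4 rises after etoposide were smaller, in a window of HOXA9 and HOXA10 that holds MIR196B, in 2 of HOXA13 (its 5′ end window among them) and in 1 of HOXC11. Those after propyl gallate included the 3′ end of HOXB1 (chr17:48529001-48530000) at 54.8%, 61.0%, 66.1%, 65.9% and 47.2%, also called for theophylline, and an intron of HOXB3 and HOXB6 (chr17:48603001-48604000) at 7.08%, 11.9%, 14.4%, 10.3% and 6.28%. The remaining 3 were the 5′ end window of HOXC6 (4.43% in the control and 9.02% after propyl gallate), the HOXD8 promoter window above and a HOXD1 window (4.10% and 5.88%). The HOXB1 3′ window was thus called higher after 2 chemicals and lower after 5-aza-dc. Beside it theophylline had 4 called rises, in windows of HOXB7 (8.24% in the control and 11.8% after theophylline) and HOXC13 (3.49% and 5.29%) and in 2 windows of HOXC12, chr12:53957001-53958000 at 20.7%, 22.9%, 25.9%, 29.6% and 20.3% and chr12:53960001-53961000 at 22.9%, 24.1%, 25.1%, 28.8% and 22.4%, with theophylline the highest library in both.

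Etoposide, propyl gallate and theophylline were compared with the same control library, and in 17 of the 21 windows called lower for at least 1 of them that library was the highest of the 5. Being called lower itself favours windows where the control is high, so this count is partly set by the choice of windows. The share over all called windows of the table was not computed. The HOXC11 promoter shore (chr12:53972001-53973000) was at 50.3%, 41.2%, 38.3%, 39.4% and 44.2% and was called for all 3. A shelf window of HOXB3 and HOXB4 (chr17:48568001-48569000) was at 23.1%, 6.67%, 12.5%, 7.27% and 11.9% and was called for etoposide and theophylline, with only 143 calls in the control. In both of these windows the control was above every chemical. Propyl gallate alone was called lower in a HOXA7 promoter island (chr7:27158001-27159000) at 12.2%, 12.9%, 6.66%, 12.6% and 7.08%, and with 5-aza-dc in a HOXB7 shore (chr17:48608001-48609000) at 25.4%, 20.9%, 12.4%, 17.5% and 15.1%.

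Several microRNA genes sit inside the clusters, and the mature sequences of those with a window on the hairpin (RefSeq, GRCh38.p14) are given here with bases 2 to 8, the seed, in capitals, since their windows are also HOX windows. miR-196a and miR-196b share their seed and are known to target HOX messages.
miR-196a-5p: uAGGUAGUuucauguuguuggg
miR-196b-5p: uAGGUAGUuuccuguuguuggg
miR-615-3p: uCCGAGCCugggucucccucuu
miR-10b-3p: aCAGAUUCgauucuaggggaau

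The window on the MIR615 hairpin, shared with HOXC4 and HOXC5 (chr12:54034001-54035000), was at 8.09%, 5.89%, 8.20%, 7.44% and 4.76% and was called lower after 5-aza-dc (adjusted p = 5.01e-05 by Fisher's exact test). That on MIR196B (chr7:27169001-27170000) was at 2.59%, 7.39%, 2.66%, 4.19% and 3.95% and was called higher after etoposide. On MIR196A2 (chr12:53991001-53992000) the values were 30.8%, 23.0%, 37.9%, 31.9% and 18.1% on as few as 78 calls, and on MIR10B (chr2:176150001-176151000) 25.6%, 21.6%, 21.7%, 23.4% and 22.4%, with no window called in either.

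Genes outside the HOX list that belong to the same system were read beside it. Of 26 cluster transcripts that are no HOX genes, such as HOTAIR, HOTTIP and the antisense RNAs, 23 were matched by symbol (HOXB-AS3, MIR196A1 and MIR196B are not counted here) and had 137 windows of which 116 were HOX windows too. They were at 11.6% in the control and 10.1% after 5-aza-dc, with 12 windows called lower (8.76%, beside 10.4% of all windows) and 3 higher. Low levels were not limited to the HOX genes themselves. The 25 windows in the 1500 bases around them were at 15.7% in the control, and 10 windows in the next 1500 bases outward at 9.20%. Neighbouring genes beyond the clusters were at 63.6% over 113 windows, the cofactors of HOX proteins (PBX, MEIS and PKNOX genes) at 70.5% over 202, and regulators of the clusters such as EZH2, SUZ12, CDX2 and CTCF at 67.3% over 92. The neighbours were mixed in the control: EVX1 was at 19.0% over 9 windows and EVX2 at 41.6% over 13, and the rest at 59.4% to 88.1%. After 5-aza-dc these 3 lists differed by -1.11, -1.34 and -0.629 points, with 9, 17 and 5 windows called lower, 7.96%, 8.42% and 5.43% of their windows beside 10.4% of all windows. CDX2, itself a homeobox gene, was the lowest gene of these 3 lists with 8.66% in the control and 7.91% after 5-aza-dc.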

How the data were processed

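RRBS reads of 5 libraries were processed by the authors with Trim Galore, aligned with Bismark, and summed by methylKit over windows of 1000 bases; the processing notes name hg38, which the coordinates here follow. The coverage was scaled between libraries, and windows present in all 5 were kept. The deposited counts of methylated and unmethylated calls are unscaled for the vehicle control. Those of the other 4 libraries are, as deposited, scores: the authors had multiplied the counts by a factor and rounded them, and the β-value is a fraction the authors computed from them. The counts before scaling were recovered by dividing by the factors 1.18 (etoposide), 1.09 (propyl gallate), 1.15 (theophylline) and 1.21 (5-aza-dc), found from the whole numbers that do not occur, and returned the deposited values in 100% of windows. Recovered counts entered the test planned for counts, and the deposited calls served as an alternative.

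Means give each window equal weight, and their intervals come from the binomial variance of the calls; single windows have Wilson intervals. Fisher's exact test, two-sided, was adjusted by Benjamini-Hochberg over 288391 windows and was tested on simulated data. No test between conditions was possible with single libraries. Named windows were those at the annotated 5′ end that are lowest and highest in each cluster, the 3 largest called rises and falls per chemical with at least 30 calls in both libraries, and the highest and lowest per cluster with at least 100 calls in every library. The HOX genes, the other lists and these rules were chosen with earlier results of these data known. Alternatives covered the definition of HOX windows, a minimum of calls, medians, pooled calls and the thresholds. Promoter and microRNA sequences came from RefSeq tables of GRCh38.p14, and the genome supplied here was of another build and was not used. Analyses used Python 3.11.15, numpy 2.4.6, pandas 2.3.3, scipy 1.17.1, numba 0.67.0 and matplotlib 3.10.9.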

Additional observations from a re-analysis of the deposited data

How the results depend on the processing

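Directions were kept for the 5-aza-dc difference in every cluster and under every alternative tried. Counting calls as deposited or before scaling changed no result by more than its counting error, or no count by more than 1.5 times, and the smaller limits are grouped here. No paired analysis was possible because each condition has 1 library and the replicate numbers only name it.

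In the vehicle control, HOXA, HOXB, HOXC and HOXD were at 13.3%, 17%, 11.8% and 8.25% with only the windows the table assigns to a HOX gene, at 9.60%, 8.41%, 8.71% and 5.14% with pooled calls, and at 9.08%, 7.91%, 8.09% and 4.79% as medians, so the order of the clusters depends on the definition and was not the same in these. By overlap alone HOXB was at 11.2% and HOXD at 11%. With all windows of the cluster span HOXB was at 19.8%, and with at least 30 calls in all libraries HOXC was at 13.1%. Over all HOX windows the 5-aza-dc difference was -1.41 points with pooled calls and -1.02 as a median, and the theophylline median was 0.286. The 5-aza-dc medians were -0.946 points in HOXA, -1.46 in HOXB and -1.32 in HOXC, and pooled calls gave -1.94 in HOXB. With the table's assignment alone HOXB differed by -3.72 points after 5-aza-dc, -1.41 after etoposide and -1.40 after theophylline, and HOXA by 0.563 after etoposide and 0.608 after propyl gallate. Leaving out the most changed window of a gene, chosen after seeing the data, moved HOXA11 after 5-aza-dc from -4.73 to -1.62 points.

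With Fisher's exact test and a limit of 0.05 on the adjusted p, HOX windows called higher and lower were 18 and 19 for etoposide, 14 and 25 for propyl gallate and 16 and 16 for theophylline, and 5 were called higher for 5-aza-dc. Asking also for at least 10 percentage points left 1 and 2 for etoposide, 2 and 2 for propyl gallate, 1 and 4 for theophylline and 0 and 6 for 5-aza-dc (2.55% lower, against 2.76% of all windows, where the share was 14.0% against 10.4% without this limit). At 25 points 0 and 1, 0 and 0, 0 and 1, and 0 and 1 were left in that order. Calls divided by 10 left 0 in both directions for all 4 chemicals. With the table's assignment alone, 7 were called lower for propyl gallate and 1 higher for 5-aza-dc. The cause of these changes was not tested where the alternative does not itself change the windows or the threshold.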
